A study of Mus musculus with 4 samples.

Results

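The sebaceous gland cells of mouse dorsal skin were described in situ, in tissue sections imaged on the Xenium platform, which decodes single transcripts of a fixed gene panel and assigns them to segmented cells. They were chosen by 4 of the panel's 328 genes: a cell with 10 or more transcripts was a sebaceous gland cell if it held 5 or more transcripts of Elovl6, Cidea and Pparg together and 1 or more of Krt79. This rule found 6492 cells among the 363982 cells with 10 or more transcripts in the 10 skin sections, or 1.78%, and 5541 of them lay in the 7 unwounded sections. The series held 515791 segmented cells in all.

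The mice carried a Tet-On system in which a Krt5-rtTA transgene switches on TRE-Pitx1 when doxycycline is given, so that the homeodomain factor PITX1, normally an oral and not a skin gene, is made in cells that use the Krt5 promoter, the basal keratinocytes and their appendages. PITX1+ mice ate doxycycline chow from the resting (telogen) phase of the hair cycle onward, and Control mice were littermates on normal chow (vehicle in the labels). Formalin-fixed, paraffin-embedded sections 5 µm thick were placed on 4 slides: male unwounded skin, female unwounded skin, male skin 4 days after wounding, and buccal mucosa of both sexes. The slide labels name both conditions together. The condition of each section was therefore taken from its place on the slide: the first section of each 3-section skin slide and the first and second of the 4-section slide were Control, and the others PITX1+. The replicate is the section, the labels do not say that sections came from separate animals, and p-values measure the spread between these sections. Sex and slide cannot be told apart.

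Sebaceous glands open into the hair follicle and coat hair and skin with sebum. New cells arise at the rim of the gland, move inward, fill with lipid droplets and finally burst, releasing their contents through the duct, a form of secretion called holocrine. The nuclear receptor PPARγ, encoded by Pparg, drives this lipid programme. Elovl6 elongates fatty acids, Cidea enlarges lipid droplets, and Krt79 is a keratin of the duct, upper follicle and gland.

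The 4 slides held 67803 to 182402 cells and 6288712 to 10483436 transcripts at a quality score of 20 or higher. Of these, 98.1% to 99.1% lay inside cells, and control codes made up 0.0375% to 0.0981% of calls. The median cell outside the glands held 26 transcripts in the male Control section against 59 and 87 in the male PITX1+ sections, whereas female cells held 32 and 30 in Control and 37 and 54 in PITX1+ skin, so depth moved with the condition.

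Pitx1 itself was scarce in the sebaceous gland cells. It gave 0 transcripts in the male Control section, which allows up to 0.188 per 1000 panel transcripts (3 counts; exact Poisson 95% upper limit 0.231), against 7 and 14 in the male PITX1+ sections. On the female slide the few transcripts ran against the positions: 3 and 1 transcripts in the Control sections were 0.427 and 0.251 per 1000, and 4 and 8 in the much deeper PITX1+ sections were 0.0482 and 0.0358 per 1000. The wounded Control section held 1 and the wounded PITX1+ sections 15 and 8. Each female Control interval (exact Poisson, 95%) reached from 0.0880 to 1.25 and from 0.00637 to 1.40 per 1000, and Pitx1 did not pass the filter on low counts, so it was not tested. Intervals and limits of this kind cover counting error only. In the other keratinocytes Pitx1 was at 0.0202 in male Control and 1.10 and 0.779 per 1000 in male PITX1+ sections, and at 0.0416 and 0.0399 in female Control and 0.0326 and 0.0706 in female PITX1+ ones (scaled, log2 1.61 over both slides, edgeR adjusted p = 0.262). In these keratinocytes the female values overlapped between the conditions. Directions in the female sections below rest on their place on the slide and not on Pitx1.

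Outside the female Control sections the chosen cells formed a chain of small groups along the length of the section. There 78.0% to 99.0% of them lay in groups of 5 or more linked within 30 µm. In the female Control sections only 44.3% and 24.3% did, so most were scattered. Among them 92.8% held Elovl6, 83.8% Cidea and 43.4% Pparg, and 416 cells had a single Krt79 transcript. In the female Control sections 100% held Elovl6, but only 61.7% and 62.6% held Cidea and 22.1% and 22.4% Pparg, the lowest of the 10 skin sections. A single Krt79 transcript was all that 29 of 149 and 31 of 107 cells had there. Just inside the threshold were 701 cells with exactly 5 lipid transcripts, and just outside were 924 cells with 4 that also had Krt79. A further 562 cells reached 5 lipid transcripts without Krt79, and 179 of those lay in the first female Control section against 12 to 90 in each other section. On the buccal slide 85 of 62422 cells, or 0.136%, passed the same thresholds. The makeup of the rule genes differed by slide: the mean Cidea count per cell was 4.59 in male Control and 5.85 and 9.94 in male PITX1+ sections, but 1.09 to 2.05 in all 4 female sections. Mean Elovl6 ran the other way between slides, at 4.30 to 6.14 in unwounded male and 8.79 to 16.2 in female sections.

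**Figure D1:**
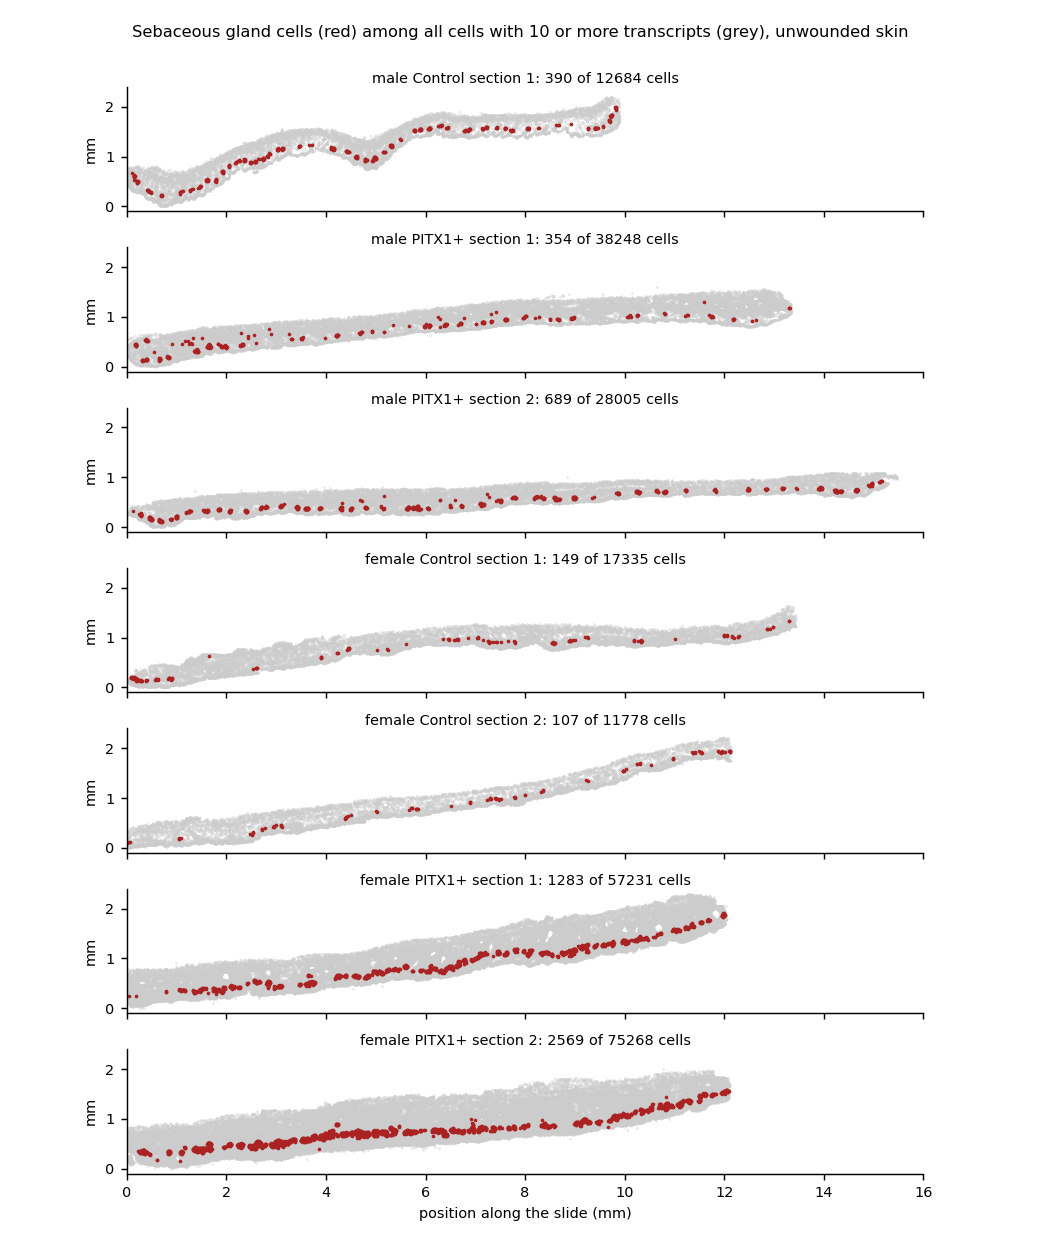
Position of the sebaceous gland cells (red) among all cells with 10 or more transcripts (grey) in the 7 unwounded sections, both axes in mm and to one scale. The red cells lie mostly in small groups along the length of the section, except in the female Control sections. There they are sparsest (149 and 107 cells) and most lie outside groups of 5 or more. They are densest in the second female PITX1+ section (2569 cells).

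Outside the 4 rule genes, the leading genes were ranked by their median log2 difference from all other cells over the 10 sections. Not all of them led in every section: Cebpb gave 0 transcripts in gland cells of the second female Control section. These values are a description with no test, since the cells were chosen on transcripts of the same cells. Prxl2a, a peroxiredoxin-like redox protein, held 14.3 to 44.0 of every 1000 panel transcripts in sebaceous gland cells and 0.298 to 3.20 in all other cells, a median log2 difference over the 10 sections of 4.73. Fabp5, which carries fatty acids inside epidermal and gland cells, held 44.2 to 149 per 1000 against 1.26 to 24.9, a median log2 difference of 3.73. Both were higher in the gland cells in 10 of 10 sections.

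Nuclear receptors and binding proteins followed. Rora, an orphan nuclear receptor, had a median log2 difference of 3.17, Ppara, the fatty acid sensing sister of Pparg, 3.12, and Igfbp2, which binds insulin-like growth factors, 2.26. Rora levels split by slide, with 20.2 to 34.1 per 1000 in the unwounded male gland cells and 3.98 to 6.97 in the female ones. Cebpb, a transcription factor of fat and sebocyte differentiation, split further: 9.58, 17.4 and 12.95 per 1000 in the unwounded male sections, and 0.569, 0, 0.795 and 0.617 in the female ones. Other cells of the same sections showed the same split, with 1.14 to 2.88 per 1000 in male and 0.0826 to 0.164 in female skin, so the difference between slides was not particular to the glands. Next came the desmosomal cadherins Dsg1b and Dsc2, the retinoic acid carrier Crabp2 and the DNA synthesis enzyme Tyms, with median log2 differences of 1.57, 1.57, 1.48 and 1.47.

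Most genes of other cell types were rarer in these cells than in the rest of the skin, though less clearly so in the female sections. The 10 macrophage and dendritic genes summed to 1.47 to 5.69 per 1000 in gland cells and 23.1 to 68.6 in all other cells. Fibroblast genes (8) summed to 3.77 to 33.2 per 1000 against 45.6 to 137. The 5 smooth muscle and pericyte genes summed to 16.5 and 15.8 per 1000 in the female Control gland cells and to at most 3.49 in the other 8 sections. Des and Myh11, the defining filament and myosin genes of smooth muscle, carried most of this. The 8 neutrophil genes summed to 2.01 per 1000 in gland cells and 1.54 in other cells of the second female Control section, and to less in gland cells than in other cells of the other 9 sections. The 6 T cell and Langerhans genes reached 2.77 against 3.38, and the 6 endothelial genes 3.77 against 5.28, in that same section. The list of 14 suprabasal and cornified genes summed to 11.0 to 38.9 per 1000 in gland cells, against 32.3 to 140 in all other cells. It was lower in gland cells in all 10 sections, by least in the first PITX1+ wound, at 38.9 against 41.8.

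**Figure D2:**
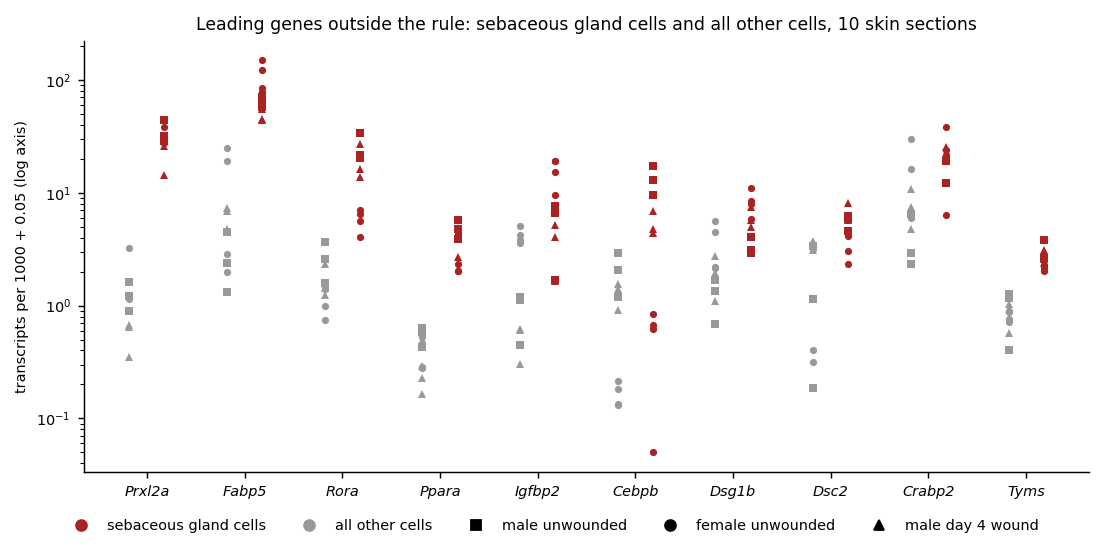
Level of the 10 leading genes outside the rule, in transcripts per 1000 panel transcripts plus 0.05 on a log axis, in sebaceous gland cells (red) and all other cells (grey). Each point is 1 of 10 skin sections and its shape gives the slide. Prxl2a, Fabp5, Rora and Ppara are higher in gland cells in every section, and Cebpb is near 0 in the female gland cells.

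In the female PITX1+ sections the groups of linked gland cells held more cells than in the female Control sections, and gland cells were a greater share of cells. In the male PITX1+ sections the groups held more cells than in the single male Control section, but gland cells were a smaller share. Sebaceous gland cells made up 3.07% of cells in the male Control section and 0.926% and 2.46% in the male PITX1+ sections. In the female sections they made up 0.860% and 0.908% of Control cells and 2.24% and 3.41% of PITX1+ cells. Across slides the share was 1.61% ± 1.27 (SD, n = 3) in Control and 2.26% ± 1.02 (SD, n = 4) in PITX1+ skin, with an exact two-sided permutation p of 0.457 (0.533 adjusted over the 7 measures of this kind). With every cell thinned to 40 transcripts and shallower cells left out, the shares were 4.37% in male Control and 0.672% and 1.98% in male PITX1+ skin, and 1.05% and 0.624% in female Control and 2.88% and 3.57% in female PITX1+ skin, the same order of the conditions within each slide.

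Per area of tissue the glands held 72.5 cells per mm2 in the male Control section and 47.0 and 98.3 in the male PITX1+ sections. The female Control sections held 24.8 and 19.9 and the female PITX1+ sections 132 and 217 cells per mm2. The mean density was 39.1 ± 29.1 (SD, n = 3) in Control and 124 ± 71.5 (SD, n = 4) in PITX1+ sections, a difference within the spread of the sections (exact two-sided permutation p = 0.114, adjusted 0.267).

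Gland profiles, groups of 5 or more gland cells linked within 30 µm, held more cells on average in every unwounded PITX1+ section than in any unwounded Control section. The 39 profiles of the male Control section held 8.38 cells on average, and those of the male PITX1+ sections 10.6 and 13.4. In the female sections the means were 6.0 and 5.20 cells in Control and 18.7 and 36.9 in PITX1+ skin, where the largest profile held 173 cells. The groups did not overlap, at 6.53 ± 1.66 (SD, n = 3) against 19.9 ± 11.8 cells (SD, n = 4). The exact two-sided permutation p was 0.0571, the smallest that 3 against 4 sections can give (0.267 adjusted). The median gland cell held 36 transcripts in male Control and 53 and 95 in male PITX1+ sections. In female sections it held 44 and 34 in Control and 59 and 81 in PITX1+ skin. Deeper cells reach 5 lipid transcripts more easily, and profile size was not recomputed at equal depth. The 4 sections with the fewest and the most gland cells were all female, and only 44.3% and 24.3% of the female Control gland cells lay in any profile, against 78.0% to 99.0% elsewhere.

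Nuclei of the female PITX1+ gland cells were also the largest, with medians of 42.4 and 41.7 µm2 against 26.2 and 27.2 µm2 in female Control. The male medians were 28.1 µm2 in Control and 29.2 and 27.9 µm2 in PITX1+ skin and overlapped. Nuclei of the other cells moved the same way in the female slide, from 18.9 and 18.5 to 24.6 and 27.7 µm2. Relative to those other cells, the gland nuclei were 1.42 ± 0.0435 times as large in Control and 1.51 ± 0.151 times in PITX1+ sections (SD, n = 3 and 4, exact two-sided permutation p = 0.400). Whole-cell area was 119 ± 13.9 µm2 in Control and 112 ± 11.6 µm2 in PITX1+ sections, with p = 0.629 by the same exact permutation test.

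**Figure D3:**
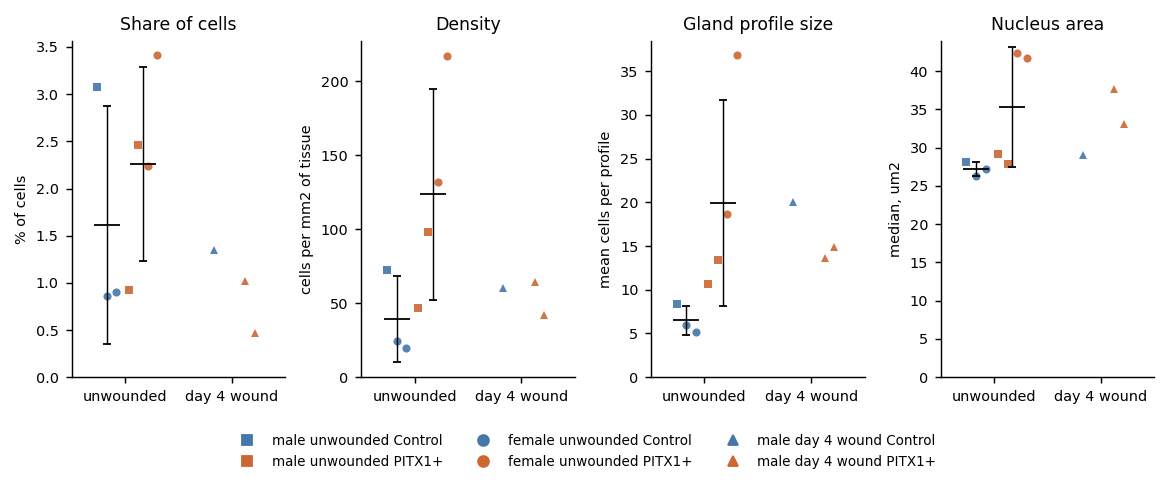
Share of cells (%), density (cells per mm2 of tissue), mean cells per gland profile and median nucleus area (µm2) of the sebaceous gland cells in each skin section, with axes from 0. Points are sections, and bars give the mean and SD of the 3 Control and 4 PITX1+ unwounded sections. Profile size does not overlap between conditions in unwounded skin, and the other 3 measures do.

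In the day 4 wounds, with 1 Control and 2 PITX1+ sections and hence no test, gland cells made up 1.35% of cells in Control and 1.02% and 0.472% in PITX1+ sections. The profile size ran opposite to unwounded skin, with 20 cells in the Control wound and 13.7 and 14.9 in the PITX1+ wounds. Median nuclei measured 29.0 µm2 in the Control wound and 37.7 and 33.1 µm2 in the PITX1+ wounds. The wounded sections hold unwounded margin as well as wound, in proportions that were not measured.

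Gene expression within the glands was then compared between conditions, after summing each gene over the gland cells of a section, leaving out the 4 rule genes and fitting slide and condition together. Of 206 genes that passed the filter on low counts, 8 were higher in PITX1+ gland cells, or 3.88%, and 6 were lower, or 2.91%, at an adjusted p below 0.05 in edgeR's quasi-likelihood test. The median log2 change over the 206 genes was -0.02. In all 14 the Control and PITX1+ sections did not overlap within either slide, and so they were in 64 of the 206. Levels below are transcripts per 1000 after TMM scaling and without the rule genes.

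The largest change was in Scd2, a stearoyl-CoA desaturase that makes monounsaturated fatty acids. Its level was 3.44 in the male Control gland cells and 43.4 and 44.98 in the male PITX1+ ones. In the female sections it was 2.71 and 2.59 in Control and 49.2 and 49.5 in PITX1+ gland cells. No section came near those of the other condition, and the fold was 13.99 (log2 3.81, SE 0.34, edgeR adjusted p = 2.06e-06). Scd2 held 10.7 per 1000 in the Control wound and 57.2 and 63.5 in the PITX1+ wounds.

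Lbh, a transcriptional cofactor of epithelial progenitors, came second by p-value, though not by size of change. It stood at 1.84 in male Control and at 7.77 and 12.9 in male PITX1+ gland cells. The female levels were 1.503 and 1.72 in Control against 14.3 and 15.1 in PITX1+ sections, and the log2 change was 2.72 (SE 0.35, edgeR adjusted p = 0.000119). Gstm5, a glutathione S-transferase, went from 2.07 to 7.996 and 6.91 in male and from 1.35 and 0.862 to 5.43 and 5.16 in female sections (log2 1.86, SE 0.35). All 3 genes rose in the male and in the female sections.

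Sprr1a, a cornified envelope precursor that keratinocytes switch on under stress, was at 1.49 in male Control and at 27.6 and 5.01 in male PITX1+ gland cells, and went from 0.301 and 0 to 3.11 and 5.73 in the female ones (log2 3.58, SE 0.68). Its first male PITX1+ section stood above the other PITX1+ sections.

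Dsg3, the desmoglein of lower epidermal layers, rose with a log2 change of 2.28 (SE 0.49), from 0.689 to 3.998 and 4.39 in male and from 0.451 and 0.287 to 1.31 and 2.62 in female gland cells. The integrin subunit Itgb5 rose by 2.12 (SE 0.46) on the log2 scale. Dsc1, a desmocollin of the upper epidermis, was at 1.95 in male Control and only 2.11 in the second male PITX1+ section, against 7.94 in the first. With 1.503 and 1.44 in female Control and 6.10 and 11.6 in female PITX1+ sections its log2 change was 1.85 (SE 0.50, edgeR adjusted p = 0.0313).

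Of the 6 lower genes, Angptl4, a secreted inhibitor of lipoprotein lipase that fatty acid receptors induce, stood at 7.92 in male Control and at 1.75 and 4.49 in male PITX1+ gland cells. In female gland cells it was 11.3 and 8.04 in Control and 2.47 and 3.89 in PITX1+ sections. The log2 change was -1.68 (SE 0.34, edgeR adjusted p = 0.00619). Scd2 and Angptl4, both lipid genes, thus changed in opposite directions in the same sections.

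The receptor Notch2 and the Notch ligand Jag1 fell together. Notch2 was at 10.9 in male Control and 3.66 and 5.30 in male PITX1+ sections, and at 14.7 and 9.19 in female Control and 4.66 and 7.46 in female PITX1+ sections (log2 -1.29, SE 0.29). Jag1 went from 4.13 to 2.42 and 1.68 in male and from 4.66 and 6.03 to 1.90 and 2.21 in female gland cells (log2 -1.41, SE 0.33, edgeR adjusted p = 0.0121). Tgfbi, a matrix adhesion protein, fell by 1.94 on the log2 scale (SE 0.42). Col17a1, the hemidesmosome collagen of basal keratinocytes, fell by 1.27 (SE 0.32), and the lipid transporter gene Abca8a fell by 1.59 (SE 0.43).

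These calls leaned unequally on single sections. In all 23 alternative settings Scd2 and Lbh passed the threshold, and Sprr1a did in 22. Without the male Control section, the only one of its kind, 7 of the 14 calls were lost (Col17a1, Dsg3, Itgb5, Tgfbi, Abca8a, Jag1 and Notch2). Leaving out the first female Control section ended the calls of Col17a1, Abca8a, Jag1 and Notch2, and without either the second female Control or the second female PITX1+ section Col17a1, Dsc1, Abca8a and Jag1 lost theirs. No called gene changed sign in any setting.

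On the female slide the gland cells of the Control and PITX1+ sections also sat differently. A gland cell was counted as inner if 5 or 6 of its 6 nearest cells were gland cells and as edge if at most 2 were. Edge cells made up 86.6% and 91.6% of the female Control gland cells and 41.4% and 24.6% of the female PITX1+ ones. On the male slide the Control section, at 39.5%, lay between the PITX1+ sections, at 43.8% and 28.7%. These shares were not tested. With edge cells alone, 12 of 153 genes tested passed the threshold, all of them among the 14, with Scd2 at a log2 change of 3.699 and Angptl4 at -1.75. Only 44.3% and 24.3% of the female Control gland cells lay in any gland profile, so edge cells there include cells outside the gland groups. Abca8a (edgeR adjusted p = 0.157) and Jag1 (0.0851) no longer passed.

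**Figure D4:**
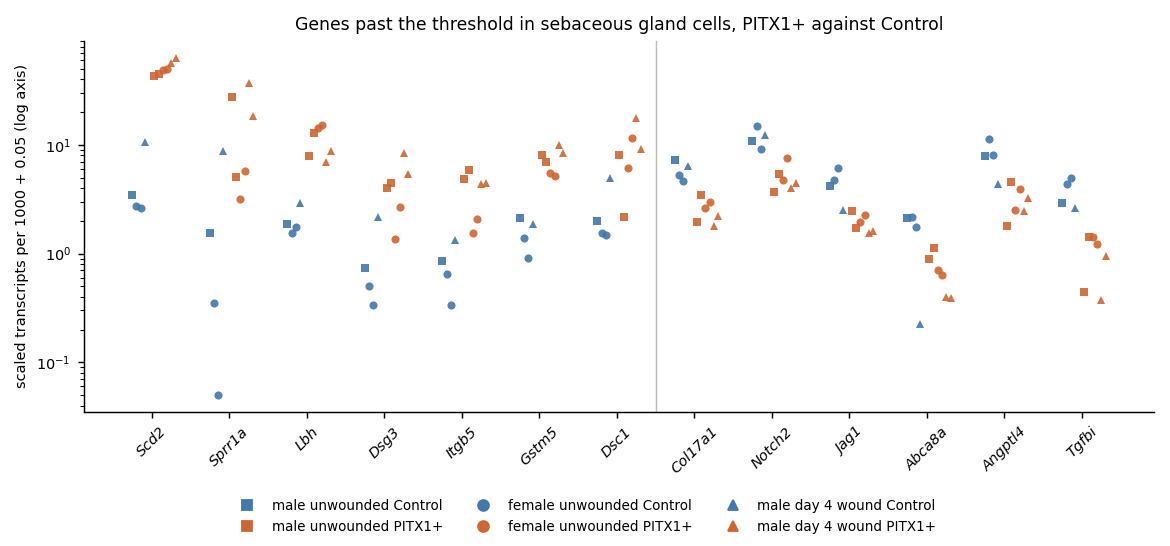
Levels of 13 of the 14 genes past the threshold in sebaceous gland cells, as scaled transcripts per 1000 plus 0.05 on a log axis, 7 higher genes left of the line and 6 lower genes right of it. Blue points are Control and orange points PITX1+ sections, and the shape gives the slide. Within each unwounded slide the colours do not overlap for any of the 13.

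The wounded slide was not used in the test and so gave a separate set of sections. Both PITX1+ wounds lay on the same side of the Control wound as in unwounded skin for 13 of the 14 genes, or 92.9%, against 121 of all 206 tested, or 58.7%. Angptl4 was at 4.29 in the Control wound and 2.44 and 3.18 in the PITX1+ wounds. Notch2 went from 12.4 to 3.99 and 4.41. The exception was Abca8a, at 0.176 in the Control wound and 0.352 and 0.339 in the PITX1+ wounds.

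Among the lists, described by counts with the median over all tested genes of -0.02 as background, few members passed the test. Of 8 lipid genes outside the rule, Scd2 rose, Angptl4 fell, and the median log2 change was 0.11. Ppara (-0.51), Rxra (-0.09), the heterodimer partner of these receptors, and Fabp5 (0.31) did not pass. The 10 cell cycle genes gave 0 calls and a median of -0.15, with Pttg1 at -0.59 and Cdc20 at 0.56. Of 5 measurable duct and upper follicle genes none passed (median -0.19), Plet1 being at 0.67 and Krt17 at 0.55.

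Basal and adhesion genes gave 1 lower call of 11 (Col17a1, median -0.18), with Lama5, a laminin chain, at 1.00. Of 10 tested suprabasal genes Dsc1 alone passed (median -0.00), and Lor, the loricrin gene, was at 1.91. For the activated keratinocyte list 7 of 15 genes could be tested, Sprr1a passed, and the median was 1.29. Slpi, a protease inhibitor of that list, was at 2.56, with 10.8 per 1000 in the first male PITX1+ section and at most 0.720 in the other 6. Oral epithelial genes gave 0 calls of 6 (median 0.27, Aldh1a3 at 0.95 and Krt23 at 0.52) and hair matrix genes 0 of 2 (Dlx3 at 1.87 and Dsg4 at 1.65).

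Crabp1, a retinoic acid carrier, was at -1.21 and did not pass. The EGF receptor family gave 0 of 4 (median -0.17), with the ligand Tgfa at 1.34 and Egfr at -0.72. Macrophage genes gave 0 of 6 (median 0.18, Ctss 0.81 and C1qa 0.39), endothelial genes 0 of 5 (0.18, Cdh5 1.55 and Pecam1 1.504), fibroblast genes 0 of 8 (-0.26, Tnxb -1.14 and Pi16 -0.70), the T cell list 0 of 1 (Cd3g, -0.67), and no neutrophil gene could be tested. The 5 smooth muscle genes had the lowest median, -1.47, with Des at -2.01 and Myh11 at -1.79 and 0 calls. Their levels were high in the female Control gland cells alone (Des 7.36 and 5.46, Myh11 6.91 and 8.90 per 1000), which moves with the female contrast. Their part in the 6 lower genes was not tested.

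Whether these changes belonged to the glands or to keratinocytes at large was tested against other keratinocytes of the unwounded sections. Over all skin sections, wounds included, there were 68021 other keratinocytes, chosen by 5 or more transcripts of Krt5, Krt15, Krt1 and Krt77. Of these keratins, Krt15 and Krt77 themselves fell in the keratinocytes tested (log2 -2.59 and -2.56, edgeR adjusted p = 0.0306 and 0.0296). Deeper cells also reach the threshold more easily. Whether the makeup of these keratinocytes shifted with the condition was not tested. In them Scd2 rose by 2.35 on the log2 scale, Lbh by 1.93, Gstm5 by 1.32 and Sprr1a by 2.86, and Tgfbi, Col17a1 and Abca8a fell by 1.57, 1.63 and 1.12. These 7 genes passed the threshold there, where 87 of 324 genes, or 26.9%, passed in either direction, Krt15 and Krt77 among them. A further 6 of the genes called in the glands did not pass in keratinocytes: Dsg3 was at 0.98, Itgb5 at 0.40, Dsc1 at -0.05, Angptl4 at 1.80, Notch2 at -0.03 and Jag1 at 0.46.

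The test of the difference itself, gland cells against keratinocytes within each section, called 0 of 318 genes, a percentage of 0, with edgeR. At an unadjusted p below 0.05 there were 44, and DESeq2 called 13. The smallest adjusted value belonged to Angptl4, which was lower in PITX1+ gland cells and higher in PITX1+ keratinocytes, with a difference of -3.80 on the log2 scale (edgeR adjusted p = 0.0836). No gene was therefore shown to respond differently in the glands by edgeR.

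The response of the male and the female glands differed for 1 gene of 206, or 0.485%, by the interaction of slide and condition. Fabp5 was at 129 per 1000 in male Control and 99.4 and 89.6 in male PITX1+ gland cells, and at 82.1 and 97.7 in female Control and 203 and 202 in female PITX1+ ones. Its log2 change was -0.65 in male and 1.02 in female glands, a gap of -1.67 (edgeR adjusted p = 0.0156). This call was lost with library sizes in place of TMM, and without male PITX1+ replicate 2 or either female PITX1+ section. Other cells of the female PITX1+ sections also held more Fabp5, at 19.1 and 24.9 against 2.83 and 1.95 transcripts per 1000 unscaled in female Control. For Scd2 the log2 changes were 3.48 and 4.06 and for Lbh 2.28 and 3.05 in male and female glands.

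Inner and edge gland cells, as defined above, were compared within the same sections, in the 5 unwounded sections with 50 or more inner cells. Edge cells take in lone gland cells outside any profile as well as the rim of a gland. In the male Control and the first male PITX1+ section 83.8% and 78.0% of gland cells lay in profiles. Which cells count as inner rests on the same rule genes as the choice of the cells. This comparison, and the genes named for it, were chosen after their values were seen. Of 131 genes tested, 22 were higher in inner cells, or 16.8%, and 25 lower, or 19.1%, and 37 of these 47 lay on the same side in all 5 sections.

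The largest rise toward the inside was in Rora. Its level, in unscaled transcripts per 1000 without the rule genes, was 79.1 in inner and 47.6 in edge cells of the male Control section. In the male PITX1+ sections it was 56.2 and 14.2 in the first and 41.5 and 19.5 in the second. It was at 9.90 and 4.33, and at 15.0 and 5.37, in the female PITX1+ sections. The log2 difference was 1.55 (SE 0.17, edgeR adjusted p = 3.40e-05), and the 3 wounded sections, which the fit did not use, ran the same way. Fabp5 (1.04), Prxl2a (1.08), Dsg1b (1.31), Dsc2 (1.04), the cytokine gene Il1f8 (1.34), the endoplasmic reticulum gene Rtn4 (1.19) and Notch2 (1.32) were also higher inside in all 5 sections.

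Other genes were higher in edge cells. Krt5, the keratin of undifferentiated keratinocytes, was at 1.78 in inner and 23.5 in edge cells of the male Control section. It was lower inside in all 5 sections (log2 -1.03, SE 0.27, edgeR adjusted p = 0.0110). Sprr1a (-2.79), Krt6a (-2.05) and Dsg3 (-1.56) were lower inside as well, and so were Vim (-1.45) and Postn (-1.27), genes of fibroblasts. The barrier gene Flg (-2.09), the follicle gene Plet1 (-1.51) and Fcgbp (-1.65) followed the same pattern. How far transcripts of adjoining fibroblasts and keratinocytes contributed to edge cells was not tested.

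Of the cell cycle genes 3 of 7 tested were lower inside (median -0.64 against -0.22 over all tested), with Cenpf at -1.19 and Top2a, which unwinds DNA for division, at -0.96, while Tyms (0.42) and Prc1 (-0.64) did not pass. Top2a was higher inside in the first male PITX1+ section, at 4.11 against 2.28. Unlike the levels above, the sums that follow are per 1000 panel transcripts with the rule genes counted. A larger share of rule genes inside would lower them there, and that share was not tested. The 10 cell cycle genes summed to 19.8 unscaled transcripts per 1000 at the edge and 13.1 inside in the male Control section. The sums were 15.3 and 14.9, and 32.2 and 15.4, in the male PITX1+ sections. In the female PITX1+ sections the sums were 14.6 and 6.37, and 18.3 and 6.87. Each wounded section ran the same way, the Control wound at 27.4 and 9.35. Of 5 lipid genes 4 were higher inside (median 0.74), and of 9 basal genes 4 were lower (median -0.40). Over all 131 genes tested 16.8% were higher and 19.1% lower inside. Inner cells were picked by neighbours that passed a lipid gene threshold, so the lipid count is a description only.

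**Figure D5:**
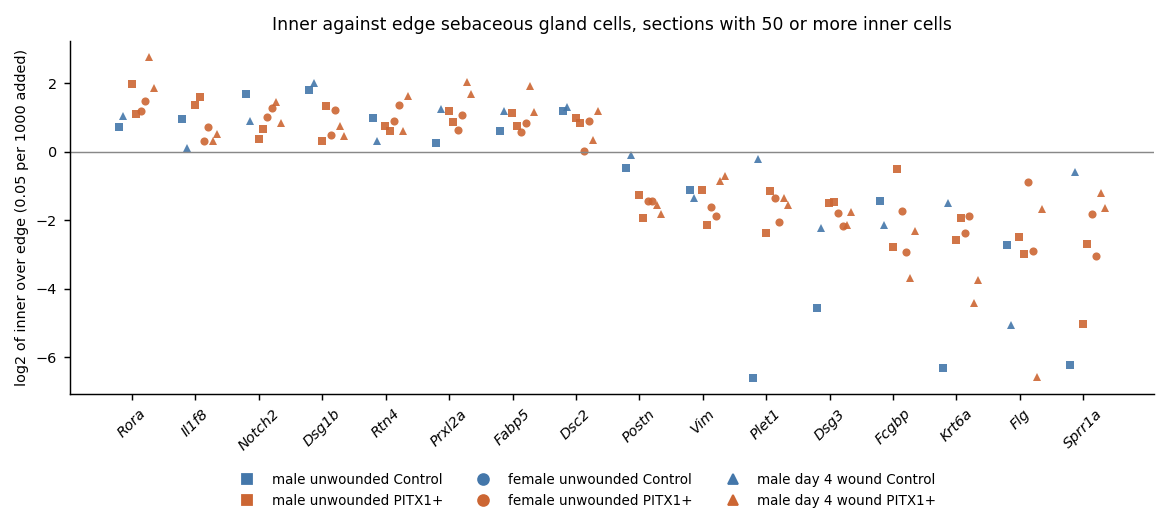
Log2 of the level in inner over edge sebaceous gland cells, 0.05 per 1000 added to both, for 8 genes higher and 8 genes lower inside, in the sections with 50 or more inner cells (5 unwounded and 3 wounded). Points above the line at 0 are higher inside. The genes were picked from those past the threshold and on one side of the line in all 5 unwounded sections. The 3 wounded sections were not used for the pick and keep the same sides. The values furthest below the line come from inner levels at or near 0.

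Thinned to 40 transcripts per cell, 14.6% of male Control gland cells held 2 or more cell cycle transcripts, against 15.98% and 19.5% in male PITX1+ sections. In the female sections the shares were 13.04% and 6.06% in Control and 11.0% and 11.5% in PITX1+ skin. Unthinned they were 10.3% to 43.0% in male and 9.35% to 23.0% in female sections, in the order of the median transcripts per gland cell within each slide. The female Control values rest on 92 and 33 cells of at least 40 transcripts.

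The cells next to the glands were poorer in immune cells than the skin slightly farther off. Within 50 µm of a gland cell, 7.64% of other cells held 2 or more macrophage, dendritic, T cell or Langerhans transcripts in the male Control section, against 18.4% between 50 and 150 µm. The near share was lower in 7 of 7 unwounded sections, by 9.06 percentage points on average (exact two-sided sign-flip permutation p = 0.0156, the smallest that 7 sections can give), and in 3 of 3 wounded sections. With keratinocytes as defined above left out, the near share was again lower in 7 of 7 sections. In male Control it was then 9.29% near and 22.5% farther off. Epithelial cells with fewer transcripts of those 4 keratins stayed in. Over all other cells, the gap was 3.54 and 4.62 points in the female PITX1+ and 9.80 to 12.0 points in the other 5 unwounded sections. The near share itself was 10.5% ± 5.02 (SD, n = 3) in Control and 16.6% ± 6.98 (SD, n = 4) in PITX1+ sections, with an exact permutation p of 0.286 (two-sided). The near shares were 7.64% in male Control against 8.64% and 12.8% in male PITX1+ skin, and 16.3% and 7.57% against 22.6% and 22.2% in female skin (exact p permuted within slides 0.111, the smallest that the 18 arrangements can give).

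The cells within 50 µm were also deeper in PITX1+ skin, with medians of 20 against 50 and 64 transcripts in male and 25 and 24 against 31 and 46 in female sections, and deeper cells reach 2 transcripts more easily. The shares were therefore recomputed, after the data were seen, with each cell thinned to 20 transcripts and shallower cells left out, 1132 of 2395 in male Control. The near share was then 6.65% in male Control against 5.23% and 6.90% in male PITX1+ skin, and 10.6% and 4.90% against 13.3% and 13.3% in female skin. The male groups overlapped, and neither permutation test passed (exact p = 0.343 over all sections and 0.222 within slides). Thinned to 40, the difference between the conditions was -0.93 percentage points (exact permutation p = 0.8). The near share stayed below the farther one in 7 of 7 unwounded and 3 of 3 wounded sections at both depths, by 5.22 and 4.61 points on average in unwounded skin. At 40 it was lower by only 0.156 and 1.54 points in the female PITX1+ sections and 1.41 in the first female Control section. In the remaining unwounded sections it was lower by 3.73 to 12.0 points, the largest in male Control, on 331 near cells.

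Genes of the cells beside the glands, neither gland cells nor keratinocytes by the rules above, differed by condition for 17 of 325 genes. In these sums fewer cells of a type and less RNA per cell cannot be told apart. Of the 325 genes 8 were higher in PITX1+ sections, or 2.46%. Scd2 (log2 1.97), Dsc1 (2.16) and Sprr1a (2.51) rose there as they did inside the glands. Krt17, of the duct and upper follicle list, and the rule gene Krt79 were among the most abundant genes of these cells. The cells beside the glands thus still held epithelial transcripts. How far gland, duct or follicle cells missed by the rules, or transcripts spilled from them, contributed to these rises was not tested. Saa3, an acute-phase protein, was at 0.0780 and 0.0572 in female Control and 5.14 and 2.77 per 1000 in female PITX1+ surroundings, but at 0.0291 in male Control and 0.0349 and 0.0371 in male PITX1+ ones.

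The 9 lower genes, or 2.77%, were Ptn, Wfdc3, Krt15, Col17a1, Lgr6, Krt77, Lhx2, Fcgbp and Itgb4. Krt15 and Krt77 were among the 4 keratins whose counts had removed keratinocytes from these cells, and deeper cells reach that threshold more easily. The fit was therefore repeated, after the data were seen, with all cells within 50 µm that were not gland cells. It called 16 of the 17 genes again, all but Lhx2 (edgeR adjusted p = 0.0555), among 40 in all.

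Ptn, a heparin-binding growth factor, was at 8.16 in male Control and 1.56 and 1.76 in male PITX1+ surroundings, and at 6.49 and 6.66 in female Control and 1.05 and 1.37 in female PITX1+ ones. Its log2 change was -2.39 (SE 0.22, edgeR adjusted p = 0.000881) and -2.01 with keratinocytes kept. Krt15, a keratin of bulge stem cells, was at -2.51 without and -2.37 with keratinocytes. Col17a1, at -2.54 and -1.99, was lower in PITX1+ sections both inside and beside the glands, and Lgr6, a stem cell gene of the upper follicle, was at -1.77 and -1.30.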

How the data were processed

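The deposited files hold, for each slide, the authors' Xenium output for a custom panel: transcript counts per cell, the deposited quality score of every decoded transcript, and other deposited columns (cell positions, cell and nucleus areas and a mark for transcripts over the nucleus). The software version and the segmentation settings are not given in the sources used here. Transcripts with a quality score of 20 or higher were summed per gene and cell, and the totals equalled the deposited transcript counts in 100% of cells. Cells were chained within 100 µm (200 µm on the wounded slide) into sections of at least 2000 cells, ordered along the slide.

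Counts were summed over the chosen cells of each section and tested with edgeR 4.0.16 (filterByExpr, TMM, quasi-likelihood test, slide as covariate, Benjamini-Hochberg over all genes tested, threshold 0.05) in R 4.3.3, with limma 3.58.1 and, as an alternative, DESeq2 1.42.0. The rule genes were left out of the sums, because a shallow cell passes the rule only if they are a larger share of it. Section values were compared by exact permutation over sections with SciPy 1.17.1. The scripts were tested on simulated data.

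The condition of a section is not in the sample labels. Sections of all 3 skin slides were assigned by their order of position alone. Members, thresholds and gene lists were chosen with earlier results of these data known. Named genes were Pitx1, the rule genes, all genes past the threshold, the few with the largest changes in each list, and the 10 leading genes. Some others, such as Rxra, were named outside these rules. The comparison of inner and edge cells, the fits to 1 slide, to edge cells or with keratinocytes kept beside the glands, and the wound comparison were added after the data were seen. Alternatives changed the filter, scaling, tool, quality, thresholds of the rule, depth and sections. The values of 1 gene past the threshold are not reported here. Cell outlines were not used, and the buccal slide was used for the rule alone. Section totals of gland cell transcripts without the rule genes ran from 2579 to 150295, which makes the female Control sections the least precise.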

Additional observations from a re-analysis of the deposited data

Results flagged for a closer look

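In the first male PITX1+ section the sebaceous gland cells held 27.6 scaled transcripts of Sprr1a per 1000 and 10.8 of Slpi, far from the other PITX1+ unwounded sections (at most 5.73 and 0.720). In 54 groups of 4 sections examined, 2 had a section this far out, and chance gives about 1 in 20.

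The male and female slides moved in opposite directions for several values. For Fabp5 the gap of -1.67 (log2, male change minus female change) passed edgeR's interaction test, but not with library sizes in place of TMM. The share of gland cells had a gap of 3.33 percentage points (female minus male), with an exact permutation p of 0.111 over 18 arrangements, the smallest those allow. The Pitx1 level had a gap of -0.649 (female minus male, scaled transcripts per 1000), which was not tested. Log2 gaps (male minus female) of 2.70 for Pi16, 3.36 for Myh11 and -1.95 for Dsc2 did not pass edgeR's interaction test after adjustment.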

How the results depend on the processing

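Of the 14 genes that differed in the sebaceous gland cells, none changed sign in 23 alternatives. The count of higher genes (8) became 20 with no filter on low genes, 2 without the slide covariate, 14 over all 10 skin sections and 16 in the female sections alone. The lower genes (6) numbered 0 without the slide covariate, 2 with transcripts of any quality, 11 with at least 8 lipid transcripts per cell, 11 over all 10 sections, 10 in the female and 3 in the male sections alone. Leaving out 1 section at a time gave 7 to 19 higher genes (19 without male PITX1+ replicate 2 and without female Control replicate 1) and 3 to 11 lower ones (11 without male PITX1+ replicate 2, 3 without either female Control or without female PITX1+ replicate 2). The single-slide settings and the edge cells alone were chosen after seeing the data.

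For the difference from other keratinocytes, DESeq2 called 13 genes where edgeR called 0, and leaving out 1 section gave 0 to 3 (3 without male PITX1+ replicate 1). The difference between the slides rested on 1 gene and became 0 with library sizes in place of TMM. It ran from 0 to 7 genes without 1 section: 7 without male PITX1+ replicate 1, 2 without female Control replicate 1, and 0 without male PITX1+ replicate 2 or either female PITX1+ section. The male Control section could not be left out of that fit. Beside the glands 17 genes became 40 with keratinocytes kept, and without 1 section 6 to 43 passed (43 without male PITX1+ replicate 2, 6 without female Control replicate 2, 11, 11 and 10 without female Control replicate 1, female PITX1+ replicate 1 and female PITX1+ replicate 2). For inner against edge cells 19 to 55 passed, 19 without female PITX1+ replicate 2 and 27 without male PITX1+ replicate 2.

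The difference in the share of cells that are sebaceous gland cells was 0.646 percentage points between the section means of unwounded skin and 0.208 over all 10 skin sections. Averaged over the slides instead, it was 0.281 in unwounded skin and -0.0131 over all 10. Leaving out 1 unwounded section moved the 0.646 to between 0.262 (without female PITX1+ replicate 2) and 1.38 (without male Control replicate 1). It moved the density of sebaceous gland cells, a difference of 84.5 per mm2, to between 53.4 (without female PITX1+ replicate 2) and 110.1 (without male PITX1+ replicate 1), and the difference in cells per gland profile, 13.4, to between 7.73 and 16.5 without the same 2 sections. The difference in cell area ran from -11.7 to 1.57 µm2 without 1 section, 1.57 without female Control replicate 2. Among named genes that did not pass the test, signs turned for Dsg4 (-0.082 in female sections, -0.054 to 8.60 without 1 section), Pttg1 (0.000696 over nuclei, -0.83 to 0.14 without 1 section), Ctss (-0.11 over 10 sections), C1qa (-0.41 with 8 lipid transcripts, -0.022 with 2 Krt79 transcripts and -0.023 over 10 sections), Cd3g (-0.69 to 0.14), Pi16 (-1.57 to 0.19, and 1.00 in male sections), Des (0.69), Myh11 (0.67) and Fabp5 (-0.64), the last 3 in male sections. The share of immune cells within 50 um of sebaceous gland cells, 6.06 points higher in PITX1+ sections, was -0.93 points with cells thinned to 40 transcripts. The causes were not tested. Depth limits the female Control sections most, with 4870 and 2579 gland cell transcripts outside the rule genes.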
